A study of Mus musculus with 12 samples.

Results

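The respiratory chain and ATP synthase of mouse cardiomyocytes are described here through 109 genes of the 22794 in the deposited counts. All 13 protein genes of the mitochondrial genome belong to the set, together with 96 nuclear genes taken by symbol (Nduf with a to c, s or v, Cox4 to Cox8, Uqcr, Sdha to Sdhd and Atp5) and a mean count of at least 10 over the libraries. Of 97 matching nuclear symbols only Cox7b2 was left out, with a mean count of 2.17 and a range of 0 to 7 counts. The lowest members inside the threshold were Ndufb4c at a mean count of 15.5, Cox6b2 at 30.3, Ndufb4b at 84.9 and Cox4i2 at 112. All 109 passed the filter on low counts, so each could be tested among 14412 genes.

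The RNA came from isolated heart muscle cells of wild-type C57BL6 mice, with age and sex not stated in the labels. Mice had either a sham operation or a 5/6 nephrectomy (NX), the removal of most kidney tissue, and received saline or JV101. The content of JV101 is not stated, and the series title speaks of recapping telomeres by gene therapy for heart disease that follows kidney disease. Tissue was taken 16 weeks after surgery, and polyA RNA was sequenced in 12 libraries, 3 in each of 4 groups: sham saline, sham JV101, NX saline and NX JV101. The labels number the replicates without saying whether each is a separate animal, so every p-value here reflects the spread between samples that may be technical.

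The respiratory chain passes electrons from NADH and succinate to oxygen through complexes I to IV and pumps protons across the inner mitochondrial membrane. Complex V, the ATP synthase, uses the returning protons to make ATP, and heart muscle depends on it for contraction. Subunits of complexes I, III, IV and V are encoded partly in the mitochondrial genome and partly in the nucleus, while complex II is wholly nuclear. Mitochondrial genes are transcribed as long transcripts of either strand that are cut into single RNAs, so the assembly of a complex needs products made by separate transcription systems.

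Libraries held 26.4 to 33.8 M counts, and the 13 mitochondrial genes took 36.7% to 69.0% of them. The 3 libraries with the highest mitochondrial share (sham saline replicate 2, NX saline replicate 3 and sham JV101 replicate 2) were also the 3 with the lowest total counts. Levels are given as CPM, a gene's counts relative to the total of its library, with libraries scaled by TMM factors. Those factors are set by the bulk of genes, so in a library rich in mitochondrial counts a sum can exceed its nominal total. All 10 cardiomyocyte markers were detected, with a summed level of 34390 to 62239 CPM. Markers of other cells were also present, none of them at 0 throughout: fibroblast markers (8 of 8 measured) summed to 215 to 1193 CPM, endothelial markers (7 of 7) to 270 to 1518 and atrial cardiomyocyte markers (6 of 6) to 46.1 to 2042. In bulk RNA, fewer cells of a type and less RNA per cell cannot be told apart.

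Some mitochondrial genes have near-identical nuclear copies, old insertions of mitochondrial DNA into chromosomes, and these bear on how reads can be counted. In the GENCODE vM21 transcripts (build GRCm38), at least 90% of all 50-base windows of 5 mitochondrial genes recurred in annotated nuclear transcripts: COX2 with 100%, COX3 with 99.9%, ATP6 with 99.5%, ND4L with 98.8% and ND3 with 98.0%. The main copy of each lay on chromosome 1. ND4 shared 62.2% of its windows, COX1 51.1%, ND2 8.19% and ND5 7.61%, and none was found for ND1, ND6, CYTB and ATP8. Nuclear sequence outside annotated transcripts was not searched. Copies there, also of ATP8, which overlaps the copied ATP6, would be missed. The first 60 bases of the sense strand of COX2 (chrM:7013-7696, plus strand) and ND3 (chrM:9459-9806, plus strand) are shown with those of their copies (Gm28661, chr1:24614885-24615565, and Gm28438, chr1:24612775-24613119, both minus strand), because a read from one can be identical to the other. A capital marks the single difference, T3C, counted from the first base of ND3.
COX2: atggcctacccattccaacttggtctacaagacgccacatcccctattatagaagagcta
Gm28661: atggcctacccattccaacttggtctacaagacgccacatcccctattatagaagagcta
ND3: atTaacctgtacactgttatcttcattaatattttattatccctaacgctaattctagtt
Gm28438: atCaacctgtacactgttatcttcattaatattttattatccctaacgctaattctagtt
Over the 681 aligned bases of COX2 and Gm28661 there were 0 mismatches. None of the main copies is a row of the counts table. Levels of the 5 genes are therefore uncertain, as are those of genes that overlap a neighbour on the mitochondrial genome (ATP8 with ATP6, ND4L with ND4). For ND4 and COX1 the same holds in part, with 62.2% and 51.1% of their windows shared.

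Per kilobase of transcript, 12 of the 13 mitochondrial genes stood above the median nuclear subunit, by very unequal amounts. COX1, the catalytic subunit of complex IV, averaged 151521 CPM per kb over the 12 libraries. CYTB, the mitochondrial subunit of complex III, followed at 74548 CPM per kb. Of the complex I subunits, ND1 reached 63992, ND2 46231, ND5 31080 and ND4 24424 CPM per kb. For comparison, the median of 82 nuclear subunits was 259 CPM per kb.

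The 5 genes with a near-complete nuclear copy were all lower, with COX2 at 6059 CPM per kb, COX3 at 3974, ATP6 at 2627, ND4L at 1076 and ND3 at 630. ND6, which has no window in an annotated nuclear transcript and is the only one of the 13 encoded on the other strand, stood at 1585 CPM per kb. ATP8, also without a window in an annotated nuclear transcript, was the lowest of the 13 at 200 CPM per kb, below the nuclear median. Copies of ATP8 outside annotated transcripts were not searched for. Whether the copies took part in the counting was not tested.

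**Figure D1:**
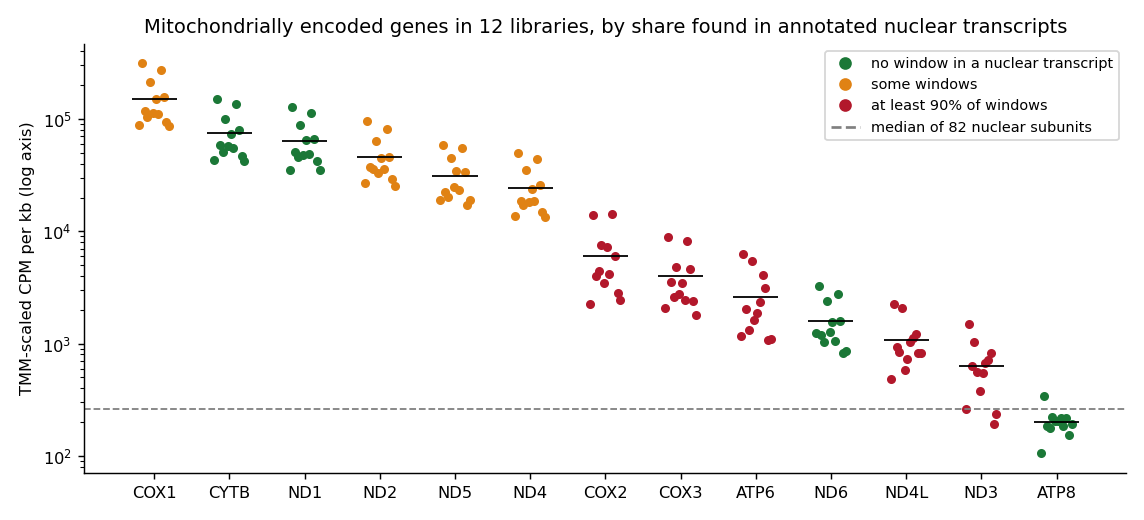
TMM-scaled CPM per kb (log axis) of the 13 mitochondrially encoded genes, with 1 point for each of the 12 libraries, a line at the mean, and colours for the share of 50-base windows found in annotated nuclear transcripts. The dashed line is the median of 82 nuclear subunits (259 CPM per kb); ATP8 is the only gene whose mean lies below it, and the 5 genes in red have means of 630 to 6059.

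The abundant mitochondrial genes kept nearly fixed proportions to each other. The ratio of CYTB to COX1 counts lay between 0.350 and 0.378 in all 12 libraries, and that of ND1 to COX1 between 0.247 and 0.278. Against the mean of the other mitochondrial genes without a near-complete copy (ATP8 left out of that mean), the SD of log2 levels over libraries was 0.03 for COX1, 0.04 for ND4, 0.05 for CYTB and 0.10 for ND5. COX3 (0.20), COX2 (0.33), ATP6 (0.38), ND4L (0.43), ATP8 (0.46) and ND3 (0.64) held these proportions less closely. ND6 lay between them with an SD of 0.17.

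ND3, a small complex I subunit and one of the genes with a near-complete nuclear copy, followed the most loosely. The loosest genes, ND3 (SD 0.64, mean 219 CPM), ATP8 (0.46, 40.8 CPM) and ND4L (0.43, 319 CPM), also had the lowest mean levels. The most abundant, COX1 (234100 CPM), had the smallest SD (0.03). In the other direction, ND6 (mean 823 CPM) was steadier than COX2 (4144 CPM) and ATP6 (1789 CPM). The part of level in the looseness was not tested. For ND3, replicates 1 to 3 had 91.4, 521 and 218 CPM with saline and 359.9, 196 and 132 with JV101 after sham surgery. After NX they had 189.9, 232 and 251 CPM with saline and 288, 66.8 and 82.9 with JV101. The order of the libraries differed from that of COX1: sham JV101 replicate 1 ranked high for ND3 and low for COX1.

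COX1 levels showed the main feature of the mitochondrial genes, a wide spread inside each group. COX1 had 137298, 482875 and 181150 CPM with saline and 160214, 328751 and 174451 with JV101 after sham surgery, and 231511, 171623 and 420961 with saline and 241085, 145358 and 133927 with JV101 after NX. In every group 1 library stood well above the other two, and all groups overlapped.

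The summed level of the 13 genes ranged from 300464 CPM (NX JV101 replicate 3) to 1075800 CPM (sham saline replicate 2), or 3.58-fold. Group means were 598035 ± 417041 CPM with saline and 501346 ± 206733 with JV101 after sham surgery, and 625090 ± 289697 with saline and 393156 ± 137944 with JV101 after NX (SD, n = 3). Differences between these means were smaller than the SD of at least 1 of the groups in each pair.

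The 96 nuclear members together ranged from 26650 CPM (sham JV101 replicate 1) to 37420 CPM (sham saline replicate 3), or 1.40-fold. Their group means were 32331 ± 4474 CPM with saline and 31047 ± 4177 with JV101 after sham surgery, and 30831 ± 3854 with saline and 30344 ± 1536 with JV101 after NX (SD, n = 3). Gene by gene, the median ratio of the highest to the lowest library was 1.51 for the nuclear members and 3.82 for the mitochondrial ones. It was 1.66 over 6834 tested genes with at least 10 CPM.

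**Figure D2:**
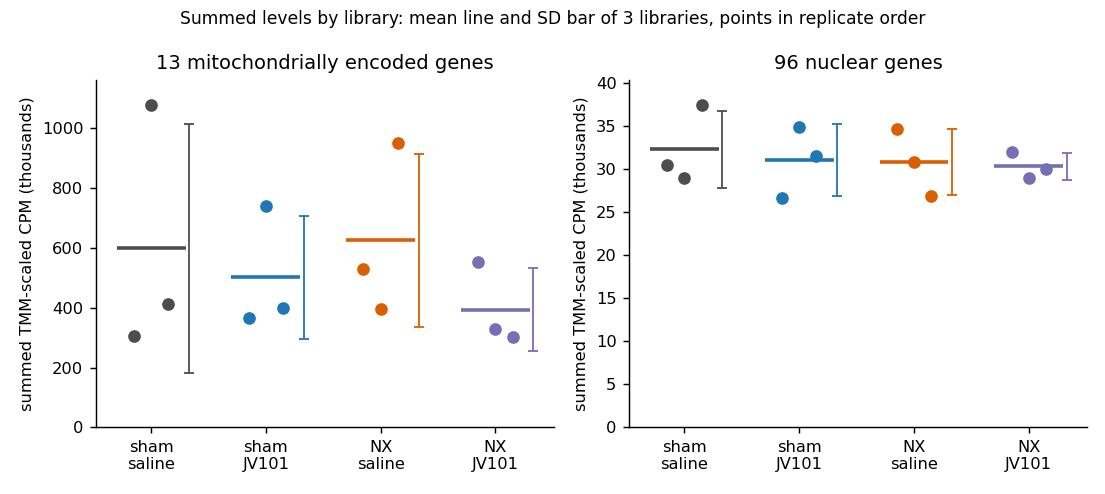
Summed TMM-scaled CPM (axes in kilo-CPM, from 0) of the 13 mitochondrially encoded genes (left) and the 96 nuclear members (right) in each library, with the mean as a line and the SD of 3 libraries as a bar. The mitochondrial sums span 3.58-fold with 1 high library in each group, while the nuclear sums span 1.40-fold and all groups overlap.

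Several library measures moved with the mitochondrial level, taken as the mean log2 deviation of the 8 mitochondrial genes without a near-complete copy. Its Pearson correlation over the 12 libraries was −0.83 with total counts (Spearman −0.69). It was −0.78 with the 6 atrial markers, 0.75 with the 5 erythroid markers (17.3 to 718 CPM in sum) and 0.76 with the 5 lymphocyte markers, which summed to only 0.922 to 12.4 CPM. With the 10 cardiomyocyte markers it was 0.13. The part of depth and cell mixture in the mitochondrial level was not tested.

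Within complex I, the largest complex, which takes electrons from NADH, the 7 mitochondrial genes were set against 49 nuclear members. The ratio of summed CPM after sham surgery was 15.2, 54.0 and 16.3 with saline and 20.1, 31.6 and 18.9 with JV101. After NX it was 22.3, 19.3 and 51.8 with saline and 26.1, 16.1 and 14.6 with JV101. The group means were 28.5 ± 22.1, 23.5 ± 7.05, 31.1 ± 17.97 and 18.96 ± 6.22 in that order (SD, n = 3). The high ratios fell in the libraries with high mitochondrial sums, whatever their group.

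Complex III passes electrons from ubiquinol to cytochrome c and has CYTB and 8 nuclear members. Its ratio ranged from 15.5 in sham saline replicate 1 to 56.4 in sham saline replicate 2, so the extremes of the 12 libraries came from 1 group. In complex IV, cytochrome c oxidase, 3 mitochondrial genes stood against 18 nuclear members and the ratio ranged from 23.7 in NX JV101 replicate 3 to 94.3 in sham saline replicate 2.

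In complex V the nuclear members outweighed the mitochondrial ones. The ratio of ATP6 and ATP8 to the 17 nuclear members after sham surgery was 0.0653, 0.387 and 0.0994 with saline and 0.0961, 0.279 and 0.0914 with JV101. After NX it was 0.101, 0.141 and 0.268 with saline and 0.174, 0.0722 and 0.0682 with JV101. ATP6 has a near-complete nuclear copy and carries most of that sum, so the level of this ratio is uncertain. In all 4 complexes every group overlapped the others.

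**Figure D3:**
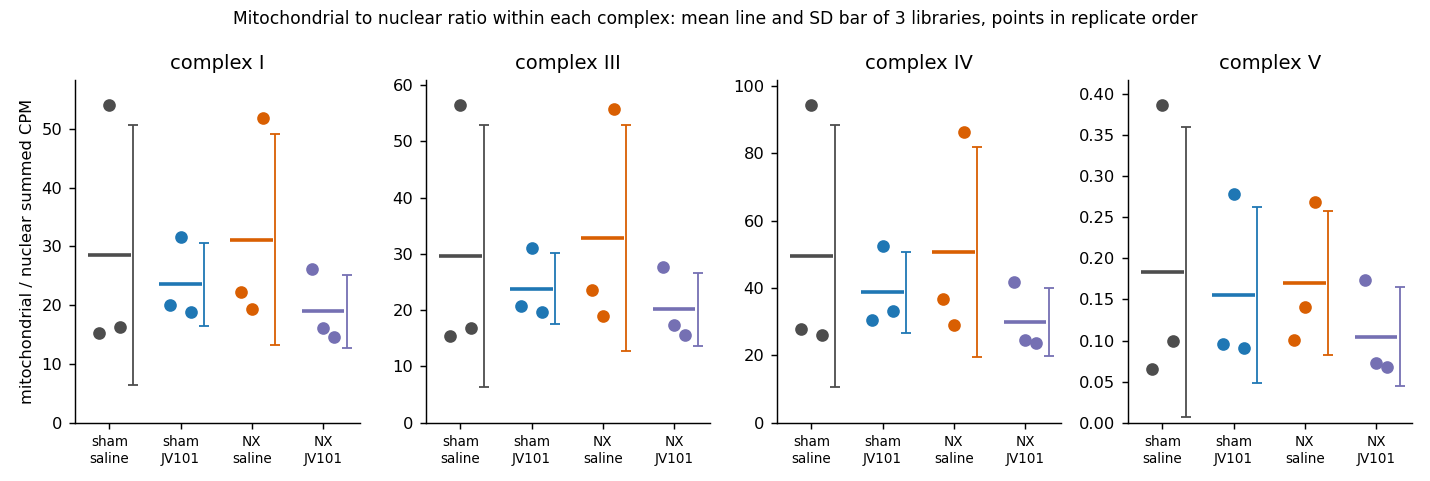
Ratio of mitochondrial to nuclear summed CPM within complexes I, III, IV and V (axes from 0) for each library, with the mean as a line and the SD of 3 libraries as a bar. The same 3 libraries are highest in each panel, led by sham saline replicate 2 with 54.0 in complex I, 56.4 in III, 94.3 in IV and 0.387 in V, and the groups overlap.

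Mitochondrial and nuclear levels of the same complex showed little relation over the libraries. Pearson's r between log2 summed levels was −0.09 for complex I, −0.11 for III, −0.14 for IV and 0.17 for V (n = 12, Spearman 0.05, 0.05, 0.05 and 0.23). These points share a library and its scaling, and are given as a description. Without sham saline replicate 2 and NX saline replicate 3, the libraries farthest from the median, r was 0.59 for complex I, 0.58 for III and 0.50 for IV. For complex V the 2 farthest were sham saline replicate 2 and sham JV101 replicate 2, and r without them was 0.13. On the deposited FPKM, where both sets divide the same total, r was −0.86, −0.87, −0.85 and −0.67.

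Single genes gave the same picture. The 8 mitochondrial genes without a near-complete copy correlated with each other over the 12 libraries with a median r of 0.98 (28 pairs, all positive). Nuclear subunits correlated among themselves with a median r of 0.76 (3321 pairs, 3176 positive). Between the 2 kinds the median r was −0.09, with 178 of 656 pairs positive.

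Among the nuclear members, levels per kilobase rose from complex I to complexes IV and V. The median nuclear subunit stood at 203 CPM per kb in complex I (37 subunits), 280 in II (4), 426 in III (8), 717 in IV (16) and 521 in V (17). The highest in complex I were Ndufb9 (525), Ndufb10 (458), Ndufa3 (377) and Ndufa5 (375 CPM per kb), all accessory subunits. In complex II, Sdhb, the iron-sulphur subunit, stood at 481 CPM per kb, Sdha, the flavoprotein that oxidises succinate, at 328, and the membrane anchors Sdhd and Sdhc at 231 and 200.

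In complex III, Uqcrh led with 595 CPM per kb, ahead of Uqcr11 (476), the core protein Uqcrc1 (466) and Uqcrb (445). In complex IV, Cox6a2 led with 1371 CPM per kb, followed by Cox4i1 (1256), Ndufa4 (994) and Cox6c (929). The highest nuclear level of all was that of Atp5b, the catalytic beta subunit of ATP synthase, at 1696 CPM per kb. Atp5a1, the alpha subunit, stood at 1167, Atp5j2 at 841 and Atp5o at 749. The 8 complex I assembly factors Ndufaf1 to Ndufaf8, which help to build the complex and are not part of it, had a median of only 10.8 CPM per kb.

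Heart isoforms dominated for Cox6a, Cox7a and Cox8 of complex IV. For the other sets Cox4i1, Cox6b1 and Ndufa4 exceeded Cox4i2, Cox6b2 and Ndufa4l2 per kilobase by medians of 309, 514 and 166 times. Cox6a2, the heart and skeletal muscle form, exceeded Cox6a1 per kilobase by 14.6 to 21.4 times (median 18.8). Cox8b exceeded Cox8a by 6.04 to 7.07 times and Cox7a1, another muscle form, exceeded Cox7a2 by 2.64 to 3.30 times. Group means of the Cox6a2 ratio were 19.1 ± 0.510 with saline and 17.99 ± 3.28 with JV101 after sham surgery, and 18.9 ± 2.61 and 16.997 ± 2.26 after NX (SD, n = 3), differences smaller than the SD of at least 1 group in each pair.

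The 3 genes for the c subunit of the ATP synthase ring were expressed together. Atp5g3 stood at 631 CPM per kb, Atp5g1 at 552 and Atp5g2 at 183. Atp5g3 exceeded Atp5g1 by 1.02 to 1.21 times, and Atp5g1 exceeded Atp5g2 by 2.84 to 3.24 times, in all 12 libraries. Cox6b2, the testis form of Cox6b1, was close to the limit of counting at 1.61 CPM per kb. Cox8c was not analysed here.

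Other minor forms moved with markers of cells other than cardiomyocytes. Cox4i2, the oxygen-responsive form of subunit 4, averaged 4.70 CPM per kb against 1256 for Cox4i1. After sham surgery its level was 2.02, 1.79 and 2.29 CPM with saline and 5.58, 3.48 and 0.809 with JV101. After NX it was 2.28, 2.82 and 4.116 CPM with saline and 4.121, 6.95 and 4.74 with JV101. The NX JV101 values all lay above the NX saline values, though the nearest pair was almost equal.

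The summed smooth muscle and pericyte markers (5 of 5 measured, 131 to 789 CPM) moved with Cox4i2 over the libraries, with a Pearson r of 0.94 (Spearman 0.91, n = 12, 0.87 to 0.96 when any 1 library was left out). The markers summed to 408, 301 and 339 CPM with saline and 711, 461 and 131 with JV101 after sham surgery, and to 238, 461 and 597 with saline and 414, 789 and 534 with JV101 after NX. Ndufa4l2, a related form of the complex IV subunit Ndufa4, gave an r of 0.90 with the same markers (0.88 to 0.94 with any 1 library left out). These correlations describe libraries that share a cell mixture, and Cox4i2 also had an r of 0.86 with the fibroblast markers. The part of these cells in the levels was not tested.

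Nuclear subunits also differed by transcript length, taken here as the length implied by the deposited counts and FPKM. This length was not compared with that of the expressed transcripts. The 28 longest subunit transcripts (1107 to 4137 bases) include those of large subunits such as Sdha, Ndufs1, Ndufv1, Atp5a1 and Atp5b. They also include accessory subunits such as Ndufa11, Ndufb8 and Uqcrq, whose r with the fibroblast markers was 0.11, 0.03 and 0.29. The 28 shortest (320 to 602 bases) include small accessory subunits such as Ndufa2, Cox6a1 and Atp5j2. This division was made after the values were seen and is a description.

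Sdha had 1154, 1072 and 1045 CPM with saline and 630.2, 1117 and 1126 with JV101 after sham surgery, and 1063, 813 and 824 with saline and 986, 554 and 874 with JV101 after NX. The 4 complex II genes summed to 1532 to 2349 CPM. The lowest Sdha values were in sham JV101 replicate 1 and NX JV101 replicate 2. In these same libraries Cox6a1 was among its 4 highest, with 45.6 and 47.95 CPM against 32.9 CPM in its lowest library.

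The median log2 deviation of the longest minus that of the shortest subunits was −0.16 and −0.17 in those libraries. It was 0.28 in sham saline replicate 1 and 0.23 in sham JV101 replicate 3. Over the 12 libraries this contrast had a Pearson r of −0.90 with the fibroblast markers (Spearman −0.83, −0.94 to −0.87 with any 1 library left out), −0.92 with the 6 macrophage markers and 0.79 with the cardiomyocyte markers. Among genes outside the set with at least 10 CPM, the same contrast (6342 long and 65 short genes) moved with it (r 0.93) and spanned a wider range, from −0.28 to 0.40, than that of the subunits. With the mitochondrial level r was 0.07.

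Of the 28 longest subunits, 22 correlated negatively with the fibroblast markers (median r −0.42, from −0.87 for Ndufv1 to 0.30 for Ndufv3). Of the 28 shortest, 3 did (median r 0.33, up to 0.65 for Cox6a1). The part of cell mixture and of RNA length in these levels was not tested.

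**Figure D4:**
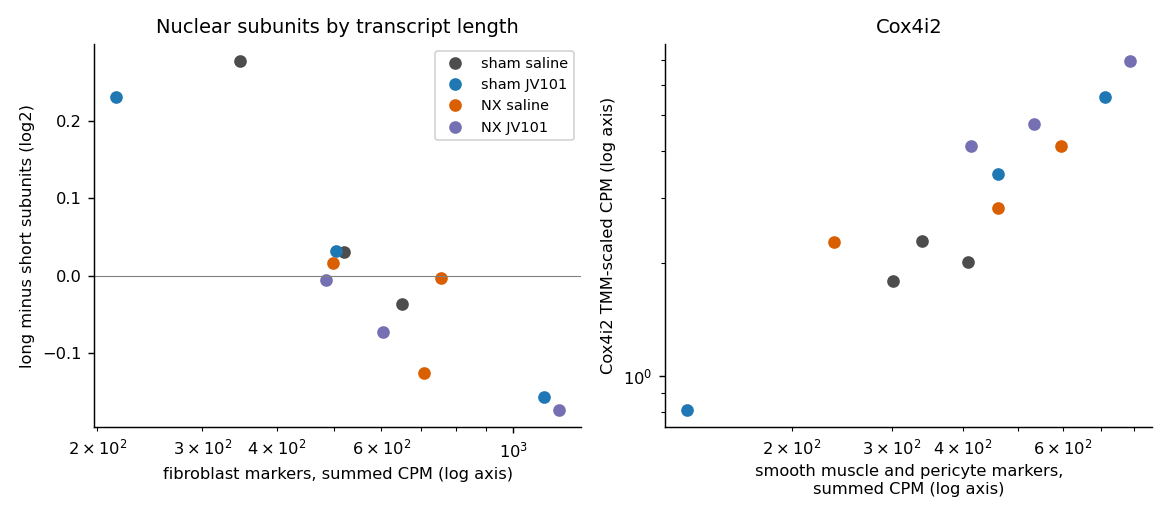
Left, difference between the median log2 deviations of the 28 longest and 28 shortest nuclear subunit transcripts against summed fibroblast markers (CPM, log axis); right, Cox4i2 against summed smooth muscle and pericyte markers (CPM, both log axes); 1 point a library, coloured by group. The left contrast falls from 0.28 to −0.17 as fibroblast markers rise (r −0.90), and Cox4i2 rises with its markers (r 0.94).

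The first comparison asks what nephrectomy does in mice given saline. No respiratory chain gene passed: the edgeR quasi-likelihood test (Benjamini-Hochberg adjusted p, threshold 0.05) called 0 of 109 members and 0% of all 14412 genes. The median log2 fold change was 0.01 for the 13 mitochondrial members (7 higher, 6 lower), −0.00 for the 96 nuclear members (46 higher, 50 lower) and 0.02 for all genes. At an unadjusted p under 0.05 the members gave 0, against 3.64% of all genes. DESeq2 called 0 members and 1 gene in all, with 0 members at an unadjusted p under 0.05.

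The groups did not overlap for 1 of 109 members, against 10.8% of all genes. That member was Uqcrc1, a core protein of complex III, with 925, 767 and 932 CPM in sham saline and 721, 727 and 667.5 in NX saline. Its log2 fold change was −0.31 (SE 0.18, edgeR adjusted p = 0.994). The other nuclear members with the smallest p were the assembly factors Ndufaf6 (−0.40, SE 0.21) and Ndufaf5 (−0.38, SE 0.21) below, and Cox4i2 (0.58, SE 0.52) above.

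The mitochondrial members had small differences between groups that each held 1 high library. COX1 differed by 0.04 (SE 0.56), CYTB by 0.08 (SE 0.53) and COX2 by 0.35 (SE 0.65) on the log2 scale. The mitochondrial median was 0.79 without sham saline replicate 2 and −0.38 without NX saline replicate 3. With a median SE of 0.53 for mitochondrial and 0.18 for nuclear members, 2 SE correspond to 2.08-fold and 1.28-fold, before any adjustment over all genes. The neutrophil markers, at 4.95 to 5.83 CPM in sham saline and 8.67 to 23.3 CPM in NX saline, did not overlap, and their part was not tested.

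The second comparison asks what JV101 does after nephrectomy, and shares its NX saline libraries with the first. All 13 mitochondrial members had negative differences for JV101 against saline (median on the log2 scale −0.66), while nuclear members had a median of 0.00 (48 higher, 48 lower) and all genes 0.01. None passed: 0 of 109 members and 0% of all genes had an adjusted p under 0.05 with edgeR, and DESeq2 called 0 members and 8 genes in all. COX2 had the largest mitochondrial difference (−1.19, SE 0.66, edgeR adjusted p = 1.00), while ATP8 (−0.11, SE 0.32) and ND4L (−0.002, SE 0.53) had the smallest. COX1 differed by −0.66 (SE 0.56).

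The COX1 values given above overlap between NX saline and NX JV101, since NX JV101 replicate 1 lay above 2 of the 3 NX saline libraries. The mitochondrial median was −0.26 without NX saline replicate 3 and −1.02 without NX JV101 replicate 1. Because the 13 genes move together over libraries, their shared sign is not 13 independent observations. On the deposited FPKM, with limma, the median was −0.31.

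Some marker sums of other cells separated these groups, whereas the mitochondrial members all overlapped. The sums for fibroblasts, endothelial cells, smooth muscle and pericytes, macrophages, lymphocytes, adipocytes, erythroid and airway cells overlapped, as did the cardiomyocyte markers. The 6 atrial markers summed to 536, 312 and 273 CPM in NX saline and 998, 1581 and 952 in NX JV101. The 6 mesothelium markers summed to 81.8, 53.5 and 111 CPM against 34.6, 38.9 and 33.4, and the 4 neutrophil markers to 23.3, 20.1 and 8.67 CPM against 6.98, 8.55 and 3.56. The nearest neutrophil values, 8.67 and 8.55 CPM, were almost equal. The part of these cells in the mitochondrial difference was not tested.

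With edgeR 1 nuclear member had an unadjusted p under 0.05, against 2.39% of all genes (DESeq2 also gave 1 member). With edgeR it was Ndufaf2, an assembly factor of complex I, with 10.8, 8.62 and 7.75 CPM in NX saline and 10.3, 13.4 and 14.8 in NX JV101. The groups overlapped at 10.3 and 10.8. The log2 fold change was 0.50 (SE 0.21, edgeR adjusted p = 1.00).

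Groups did not overlap for 1 of 109 members, Cox4i2, against 8.22% of all genes. Its log2 fold change was 0.79 (SE 0.51, edgeR adjusted p = 1.00). The smooth muscle and pericyte markers given above ranged from 238 to 597 CPM in NX saline and from 414 to 789 CPM in NX JV101, and their part in the Cox4i2 difference was not tested. Of the catalytic subunits, Sdha differed by −0.16 (SE 0.26), Ndufs1 by −0.23 (SE 0.24) and Atp5b by −0.06 (SE 0.21).

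The comparison of JV101 with saline after sham surgery shows the agent without kidney loss. All 13 mitochondrial members again had negative differences, with a median of −0.27, against −0.02 for nuclear members (27 higher, 69 lower) and 0.03 for all genes. With edgeR 0 of 109 members and 0% of all genes passed, and 0 members had an unadjusted p under 0.05 (1.7% of all genes). DESeq2 called 0 members, also at an unadjusted p under 0.05. Groups did not overlap for 0 members, against 3.82% of all genes.

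The sign of the mitochondrial median rested on 1 library here: without sham saline replicate 2 it was 0.50. On the deposited FPKM, with limma, it was 0.02. The mesothelium markers, at 62.1 to 76.4 CPM with saline and 35.9 to 53.3 CPM with JV101, did not overlap between these groups, and their part was not tested. The largest nuclear differences were Cox4i2 (0.69, SE 0.52) and Cox6b2 (−0.55, SE 0.43), both among the lowest members. Of the 17 nuclear complex V members 14 had negative differences with a median of −0.05, as had 13 of the 18 complex IV members with a median of −0.02, against 6404 of all 14412 genes. After nephrectomy the counts of complexes V and IV ran the other way, with 6 of 17 and 5 of 18 negative. Complex I did not turn, with 33 of 49 negative after sham surgery and 30 of 49 after nephrectomy. Complex II had 3 of 4 negative in both, and complex III had 6 of 8 and then 4 of 8. Nuclear subunits move together over libraries, so these counts are not independent observations. The difference between these counts was not tested.

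Nephrectomy against sham under JV101 gave a mitochondrial median of −0.36 (13 of 13 lower), a nuclear median of 0.01 (52 higher, 44 lower) and 0.00 for all genes. It shares libraries with the comparisons of JV101 with saline. With edgeR 0 of 109 members and 0% of all genes passed, 0 members had an unadjusted p under 0.05 (2.07% of all genes), and DESeq2 called 0 members, also at an unadjusted p under 0.05. Leaving out sham JV101 replicate 2 gave a mitochondrial median of 0.03, and leaving out NX JV101 replicate 1 gave −0.69. On the deposited FPKM, with limma, it was −0.15. The adipocyte markers, at 0.09 to 0.79 CPM in sham JV101 and 1.57 to 13.9 CPM in NX JV101, did not overlap, and their part was not tested.

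Groups did not overlap for 1 of 109 members, Ndufa2, against 5.11% of all genes. Ndufa2, a small accessory subunit of complex I, had 137, 142 and 122 CPM in sham JV101 and 145, 147 and 143 CPM in NX JV101. Its log2 fold change was 0.12 (SE 0.17, edgeR adjusted p = 0.999). Ndufaf2 differed by 0.43 (SE 0.21, edgeR adjusted p = 0.999).

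Whether JV101 acts differently after nephrectomy than after sham surgery was tested as the interaction. The median was −0.41 for mitochondrial members (12 of 13 lower), 0.02 for nuclear members (56 higher, 40 lower) and −0.03 for all genes. With edgeR 0 of 109 members and 0% of all genes passed, and 0 members had an unadjusted p under 0.05 (1.78% of all genes); DESeq2 called 0 members, also at an unadjusted p under 0.05. COX1 gave −0.39 (SE 0.80) and COX2 −0.81 (SE 0.92). Without sham saline replicate 2 the mitochondrial median was −1.15, and over all libraries left out in turn it reached −0.015.

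**Figure D5:**
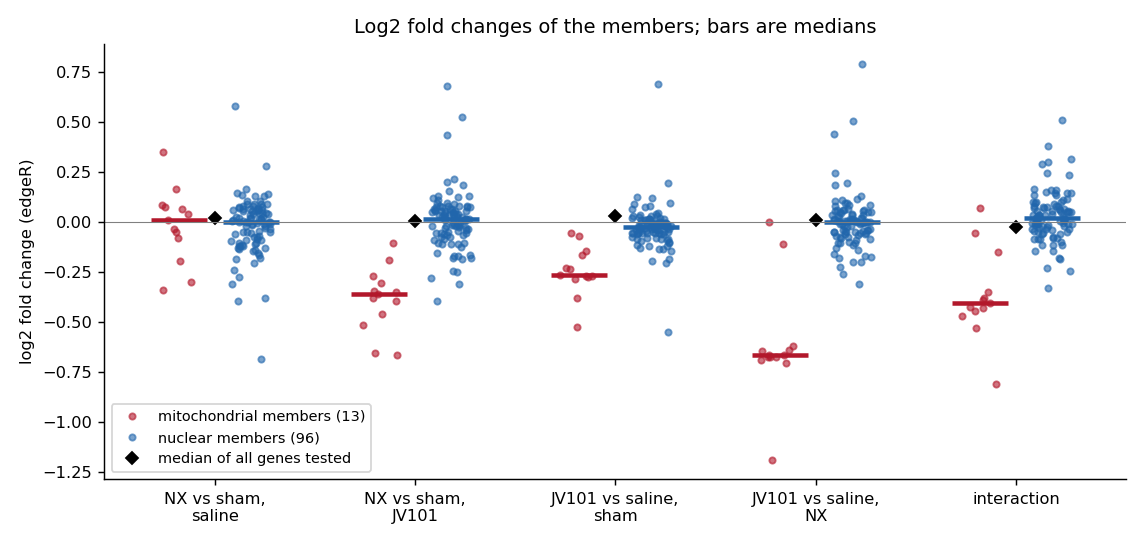
Log2 fold change (edgeR) of each mitochondrial (red, 13) and nuclear (blue, 96) member in the 5 comparisons, with bars at the medians and diamonds at the median of all 14412 genes. Mitochondrial medians run from 0.01 to −0.66 while nuclear medians stay between −0.02 and 0.02, and 0 members passed the test.

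Genes that act on the chain from outside the set were read from 5 lists. Of 12 regulators of mitochondrial gene programmes, 17 genes for transcription and replication of the mitochondrial genome, 22 for processing and decay of its RNA, 39 further assembly factors and 20 genes for mobile carriers, quinone synthesis and nucleotide exchange, 0 passed in any of the 5 comparisons with edgeR. In the genome transcription and replication list 16 of 17 genes had negative differences for nephrectomy against sham under JV101 (median −0.20), 13 of 17 for JV101 after nephrectomy (median −0.18) and 15 of 17 for the interaction (median −0.19). The list for processing and decay of mitochondrial RNA had 17, 17 and 16 of 22 negative in the same order (medians −0.13, −0.10 and −0.15). The further assembly factors had 27, 22 and 22 of 39 negative, and the regulators 9, 7 and 5 of 12. All 3 comparisons use the NX JV101 libraries. Whether genes of a list move together was not tested, so they are not counted as independent. Of all 14412 genes 7121, 6929 and 7784 had negative differences in the same order. The median of the genome transcription and replication list was 0.06 for JV101 after sham surgery and 0.00 for nephrectomy in saline mice. Medians of all genes in these comparisons lay between −0.03 and 0.03. Carriers and quinone genes had negative differences in 18 of 20 cases both for JV101 after nephrectomy (median −0.09) and for nephrectomy under JV101 (median −0.15), which share the NX JV101 libraries.

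At an unadjusted p under 0.05, these lists gave 2 genes for nephrectomy in saline mice, 1 for nephrectomy under JV101 and 0 in the other comparisons. These are smaller shares than the 3.64% and 2.07% of all genes in the same comparisons. Pprc1, a coactivator related to PGC-1, differed between sham and NX in saline mice (10.8 ± 1.46 CPM in sham, 8.10 ± 0.585 in NX; log2 fold change −0.42, SE 0.19, edgeR adjusted p = 0.994). Tmem126b, an assembly factor of complex I, differed by −0.37 in the same comparison (SE 0.15, edgeR adjusted p = 0.994). Pdss1, which makes the side chain of ubiquinone, differed by −0.51 for nephrectomy against sham under JV101 (SE 0.19, edgeR adjusted p = 0.999).

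Of the other genes with the smallest p in each list, Ppargc1a, the coactivator PGC-1 alpha, had 129 ± 64.5 CPM with saline and 84.3 ± 38.3 with JV101 after sham surgery (log2 fold change −0.61, SE 0.40). Ppara, a receptor that drives fat burning, differed by −0.50 (SE 0.29) between NX and sham in saline mice. Twnk, the helicase that replicates mitochondrial DNA, differed by −0.40 (SE 0.19) and Cox15, which makes haem A for complex IV, by −0.31 (SE 0.16) in that comparison. None of these differences passed the test after adjustment over all genes.

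Promoters of nuclear members were searched for sites of factors known to act on respiratory genes. In RefSeq promoter windows of 300 bases (GRCm38.p6), from 250 before to 50 after the gene's start, 77 of the 96 nuclear members had an entry. Both strands were searched for 4 motifs by exact letters, and no promoter of a member held more than 1 kind. GCGCATGCG, the site of nuclear respiratory factor NRF1, was found for 10 members (13%, against 1.95% of all 27025 genes). AAGATGGCG, the site of YY1, was found for 8 members (10.4% against 1.64%). TCAAGGTCA, bound by oestrogen-related receptors, was found for 2 (2.60% against 0.466%), and CCGGAAGTG, bound by GABP (NRF2), for 2 (2.60% against 2.25%). The members with a motif numbered 22. Members had to reach a mean count of at least 10, a threshold not applied to the 27025 genes. The 2 sets therefore also differ in expression, and the part of this in the shares was not tested.

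The motifs sat at different places. Of the 10 NRF1 matches 8 lay before the start, whereas 7 of the 8 YY1 matches lay after it, within 35 bases, and all 8 read in the direction of the gene. These sequences show 1 promoter of each kind and 3 more with the NRF1 motif, read in the direction of the gene, with the motif in capitals (on the opposite strand for Uqcrh and Atp5g3). For YY1 the promoter shown, Atp5j, is the exception with the motif before the start.
Atp5k, NRF1, chr5:108434416-108434474, minus strand: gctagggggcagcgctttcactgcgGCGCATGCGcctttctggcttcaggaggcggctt
Cox6a1, NRF1, chr5:115349087-115349145, minus strand: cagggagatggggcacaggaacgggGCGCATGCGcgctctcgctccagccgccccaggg
Atp5g2, NRF1, chr15:102671056-102671114, minus strand: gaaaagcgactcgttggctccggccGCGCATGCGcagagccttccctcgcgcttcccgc
Ndufa11, NRF1, chr17:56717677-56717735, plus strand: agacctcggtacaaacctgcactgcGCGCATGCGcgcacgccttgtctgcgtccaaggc
Atp5j, YY1, chr16:84835031-84835089, minus strand: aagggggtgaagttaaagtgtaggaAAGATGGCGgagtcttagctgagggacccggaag
Atp5g3, oestrogen-related receptor, chr2:73911345-73911403, minus strand: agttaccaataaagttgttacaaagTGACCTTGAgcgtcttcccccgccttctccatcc
Uqcrh, GABP, chr4:116075049-116075107, minus strand: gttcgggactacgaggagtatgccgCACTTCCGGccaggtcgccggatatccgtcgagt
A match describes these letters only, and the data hold no measure of binding.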

How the data were processed

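Polyadenylated RNA of isolated cardiomyocytes (12 libraries, 1.3 µg of total RNA each) was processed by the authors with fastp, HISAT2 and HTSeq against GRCm39, per the submitters' processing notes. The sources used here give no tool versions, gene models or strandedness. The authors' deposited tables hold counts and FPKM per gene, and counts were used for the main tests. Gene lengths follow from the ratio of counts to FPKM and equal GENCODE vM21 lengths for 13 of 13 mitochondrial genes. For nuclear genes these lengths were not compared with those of the expressed transcripts. Nuclear levels per kilobase and the division by length rest on them.

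Genes were filtered with filterByExpr (minimum count 10, minimum total 15), leaving 14412. After TMM scaling, edgeR 4.0.16 (R 4.3.3, quasi-likelihood, 4 groups as the only term, 12 libraries) was applied 2-sided, with Benjamini-Hochberg adjustment over all genes. SE is the absolute log2 fold change over the square root of F. DESeq2 1.42.0, limma 3.58.1 on log2 FPKM with pseudocounts of 1 or 0.1, RLE factors, other filters, fits of the groups compared, a replicate block and leaving out libraries were alternatives. The fit was tested on simulated data.

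Members, lists and motifs were chosen with earlier results of these data known. Genes were named by a rule: all mitochondrial genes, the 4 highest nuclear members of each complex by FPKM, isoform sets, the 3 smallest p in each direction per comparison and up to 3 per list. Ndufv1, Ndufv3, the division by transcript length and the promoter examples fall outside the rule and were chosen after their values were seen. Ndufa4 was placed in complex IV. Promoters came from RefSeq (GRCm38.p6), copies from GENCODE transcripts only. These builds are older than that of the files and were used for sequences and names.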

Additional observations from a re-analysis of the deposited data

How the results depend on the processing

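With 0 members passing in each comparison, the count stayed at 0 in all 85 alternative values, from 22 settings over the 5 comparisons with edgeR, DESeq2 or limma. Leaving out 1 library in turn gave mitochondrial medians of −0.38 to 0.79 (NX against sham, saline), −1.02 to −0.26 (JV101 against saline, NX), −0.64 to 0.50 (JV101 against saline, sham), −0.69 to 0.03 (NX against sham, JV101) and −1.15 to −0.015 (interaction). Nuclear medians ranged from −0.12 to 0.14, −0.12 to 0.09, −0.11 to 0.14, −0.03 to 0.10 and −0.14 to 0.12 in that order. Without the 3 libraries highest in mitochondrial counts, a choice made after seeing the data, mitochondrial medians were 0.41, −0.27, 0.08, 0.03 and −0.38.

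On log2 FPKM with pseudocounts of 1 and 0.1, nuclear medians moved to 0.34 and 0.34 for JV101 against saline after NX, 0.21 and 0.21 for NX against sham under JV101, and 0.24 and 0.24 for the interaction. Mitochondrial medians on FPKM were −0.31, −0.15 and −0.30 in the same comparisons, 0.11 for NX against sham in saline mice, and 0.02 for JV101 against saline after sham surgery, where the sign turned. FPKM divides by all counts, mitochondrial ones included, and the median of all genes moved to 0.21 and 0.32, 0.11 and 0.18, and 0.14 and 0.21 in the same fits. Correlations of mitochondrial with nuclear levels moved to 0.59 (I), 0.58 (III), 0.50 (IV) and 0.59 (all members) without the 2 libraries farthest from the median, and to −0.86, −0.87, −0.85, −0.67 (V) and −0.88 (all) on FPKM. The 156 alternative values of the ratios within complexes stayed within 1 SD of the libraries, an SD wide enough to include turned signs. Leaving out 1 library gave log2 differences for complex I of −0.20 to 0.84 (NX against sham, saline), −0.89 to −0.18 (JV101 against saline, NX), −0.38 to 0.54 (JV101 against saline, sham) and −0.57 to −0.09 (NX against sham, JV101).

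Same-numbered libraries of different groups correlated by −0.50 to 0.25 in their deviations from group means, with 6 of 18 pairs above 0.1. With 3 libraries per group and other differences between libraries, these values cannot tell whether the numbers pair the samples. With the replicate block 0 members passed in each comparison, and mitochondrial medians were 0.17, −0.67, −0.22, −0.26 and −0.44.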
